A study of Rattus norvegicus with 12 samples.

Results

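Kidney circular RNAs (circRNAs) of hypertensive rats were set against those of normotensive rats by averaging 2 strain differences, S minus R and SHR minus WKY. All 12 arrays of the study entered this contrast, 6 from hypertensive strains (3 S and 3 SHR) and 6 from normotensive strains (3 R and 3 WKY), with the pair of strains kept as a block. S is the Dahl salt-sensitive rat and R its salt-resistant counterpart, SHR is the spontaneously hypertensive rat, and WKY, the Wistar Kyoto rat, is its usual control. The animals were males aged 57 days, and all had eaten food with 0.3% NaCl since weaning at 28 to 30 days. Every comparison therefore held salt intake low, which for S is the diet on which its pressure rises slowly. Blood pressure values were not used here. With 2 strains of each kind, hypertension and the other inherited differences of these strains cannot be told apart.

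A circRNA is made when the splicing machinery joins the end of an exon back to the start of the same or an earlier exon of a transcript. The closed ring has no free ends and so resists exonucleases such as RNase R, which was used on this RNA to digest linear transcripts. Some circRNAs bind microRNAs or proteins, while for most no function is known. The kidney sets the long-term level of arterial pressure by the salt and water it excretes, and it is itself injured when pressure stays high.

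The arrays carried 14145 circRNA probes, of which 12438 were tested because the scanner software called them well above background on all 3 arrays of some strain. Just inside that rule were 5 circRNAs seen on only 3 arrays, all of the same strain. Just outside it were 8 circRNAs seen on 8 arrays but never on all 3 of a strain. Levels are on a log2 scale on which 0 is the array's 75th percentile, so 0 is a bright circRNA and a difference of 1 is 2-fold. Levels of different probes cannot be compared. No host gene is paired with a circRNA probe in the files used here, so circRNAs are given by probe name.

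The hypertensive arrays saw slightly fewer circRNAs. The percentage of probes that stood well above background was lower by 3.77 points in hypertensive rats. S had 81.4% ± 10.1 against 88.7% ± 2.03 for R, and SHR 86.4% ± 2.67 against 86.6% ± 1.70 for WKY (SD, n = 3). An exact two-sided permutation test within pairs gave p = 0.28 for this share, and adjusted p = 0.305 over 3 array measures by Benjamini-Hochberg, where the smallest p it allows is 0.005. S rat 1, at 70.3%, carried most of the difference, which was 0.995 points lower in hypertensive rats without it. The array's 75th percentile, in log2 before scaling, was 7.198 ± 0.97 for S against 7.95 ± 0.05 for R. It was 7.44 ± 0.54 for SHR against 7.55 ± 0.36 for WKY (SD, n = 3). The difference was -0.43 in hypertensive rats (exact permutation p = 0.235, adjusted p = 0.305). Its part in the levels of dim circRNAs was not tested. The mean level of the mRNA probes, a reading of linear RNA left on the array, was -1.998 ± 0.16 for S against -1.76 ± 0.01 for R, and -0.78 ± 0.89 for SHR against -0.33 ± 0.52 for WKY (SD, n = 3). It was lower by 0.34 in hypertensive rats (exact permutation p = 0.305, adjusted p = 0.305). SHR rat 2 stood at -1.79 against -0.13 and -0.42 in the other SHR rats, and without it the mean was lower by 0.09 (exact permutation p = 0.7). The labels name no slides. Arrays with the same scan date in the scanner files were taken as a slide. By this inference S and R lay on slide 1 together with WKY rats 1 and 2, and SHR on slide 2 together with WKY rat 3. Their part in the circRNA differences was not tested, but the fits with these measures or without these rats are given where they alter a result.

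No circRNA passed the pooled test of hypertensive against normotensive kidneys. Of 12438 circRNAs, 0 (0%) had a Benjamini-Hochberg adjusted p under 0.05 with limma, and the smallest adjusted p was 0.313. At an unadjusted p under 0.05 there were 1031 circRNAs (8.29%), 653 higher (5.25%) and 378 lower (3.04%) in hypertensive rats. Of these 1031, 990 had the same sign in both pairs, 41 had opposite signs, and 84 had no overlap between strains in either pair. In other fits of the same contrast limma called 0 circRNAs with strain as a random block, 0 without variance moderation, 10 with a mean per strain and 10 with array weights.

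The pooled differences were small against the spread between rats. The middle 50% of circRNAs lay between -0.24 and 0.27, with a median of 0.03. The median standard error was 0.24, which gives a 95% interval of 0.53 to either side. At this standard error a single circRNA would need a difference of 1.86, and an unadjusted p of 4.02e-06, to pass on its own. A pooled difference of at least 1 was found for 230 circRNAs (1.85%). The pairs did not weigh alike, since the median absolute difference was 0.40 for S minus R and 0.19 for SHR minus WKY. The S rats were also the most spread, with a median within-strain SD of 0.519, against 0.258 for R, 0.350 for SHR and 0.266 for WKY.

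Shifts in the same direction in both pairs were looked for rat by rat. In 98 circRNAs (0.788% of those tested) every hypertensive rat lay on the same side of every normotensive rat of its own pair, in both pairs and in the same direction. These were 67 circRNAs higher (0.539%) and 31 lower (0.249%) in the hypertensive strains. In 64 other circRNAs (0.515%) both pairs were free of overlap but ran opposite ways, 37 higher in S and lower in SHR and 27 the reverse. Single pairs were free of overlap for 1724 circRNAs (13.9%) in S against R and 1157 (9.3%) in SHR against WKY. Each pair alone also had more higher than lower, 992 and 732 in S against R, and 723 and 434 in SHR against WKY. By mean level, the dimmest 2488 circRNAs held 17 of the 67 and 5 of the 31, and the brightest 2488 held 3 and 9. The median level was -1.79 for the 67 and -1.04 for the 31, against -1.196 for all tested. Why the higher ones were dimmer was not tested. None of the 98 passed the pooled test, and their adjusted p ran from 0.313 to 0.551 with limma and Benjamini-Hochberg.

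**Figure D1:**
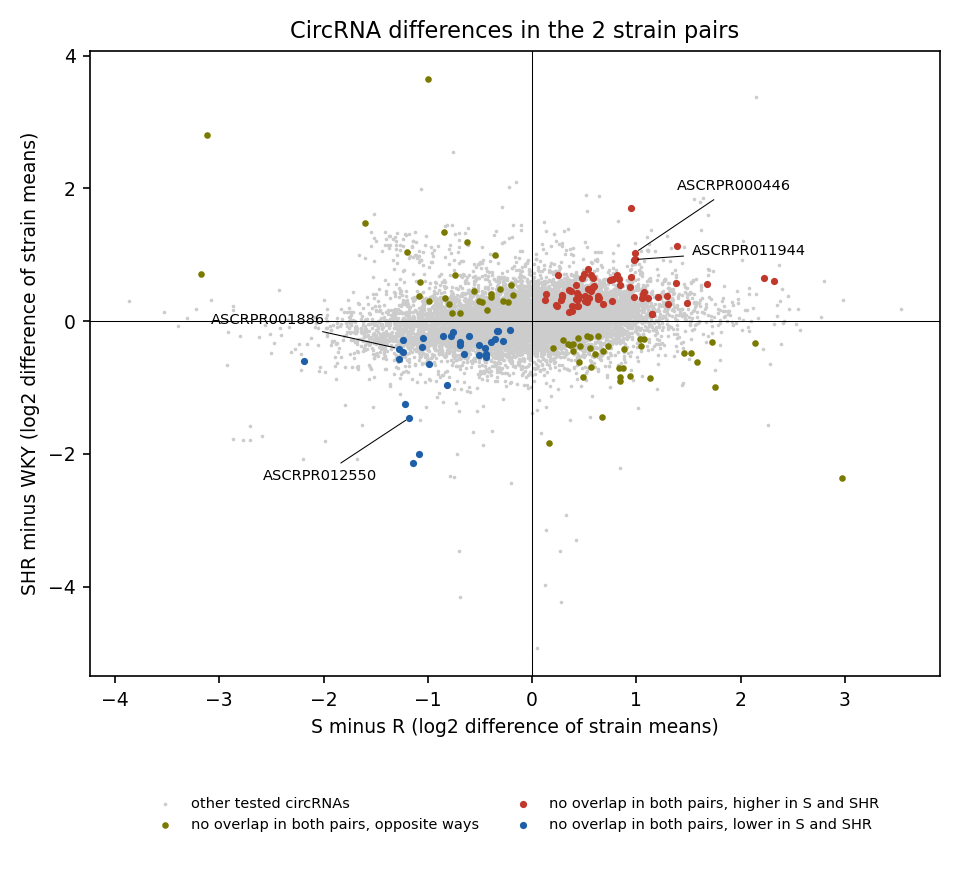
Each point is 1 of 12438 circRNAs, with the log2 difference S minus R on the x axis and SHR minus WKY on the y axis. Red points (67) and blue points (31) are free of overlap in both pairs and run the same way, olive points (64) run opposite ways, and grey points are all others. The red and blue points lie further out along the x axis than along the y axis.

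The 98 circRNAs were of moderate size. Their median absolute pooled difference was 0.54, with a range of 0.18 to 1.64, against 0.26 for all circRNAs tested, and a larger size follows from choosing circRNAs free of overlap. The median was 0.55 for those higher and -0.52 for those lower. Of the 98, 11 had a size of at least 1 (6 higher and 5 lower), and 84 were well above background on all 12 arrays. The S minus R difference was the larger in 73 of them, with a median size of 0.64 against 0.40 for SHR minus WKY. In 18 the log2 sizes of the pairs were at least 3-fold apart. A test of the difference between the pairs called 0 of the 98, against 11 of all 12438 tested (limma, Benjamini-Hochberg). An unadjusted p under 0.05 was found for 6 of the 98 and for 647 of the 12438 (limma). Choosing circRNAs that run the same way favours agreement in this test, so no conclusion about the 98 is drawn from it. Since S and R shared a slide, as did SHR and WKY rat 3, the choice of these circRNAs fixed their direction within slides too. As a description only, their median size was 0.58 with slide as a block, and that of SHR minus WKY rat 3 was 0.40.

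A few rats set how many circRNAs separated. S rat 2 was the S rat nearest to R in 77 of the 98 (78.6%), and in 1205 of the 1724 circRNAs (69.9%) free of overlap in S against R. The WKY rats took that place evenly, in 33, 32 and 33 of the 98. Leaving out a rat can only loosen the demand for no overlap. The count of circRNAs separated the same way rose least without R rat 2, to 110 of 12553 tested. It rose most without S rat 2, to 597 of 12446 tested. R rat 3 and SHR rat 2 came next, with counts of 258 and 257 when they were left out. The counts were 214, 201 and 149 on leaving out WKY rats 1, 2 and 3, and 189 on leaving out SHR rat 1. The 64 circRNAs with opposite ways became 80 to 194 with each rat left out, 194 without S rat 2 and 159 without SHR rat 2, and 32 with normexp background correction. In the pooled limma test 1031 of 12438 circRNAs had an unadjusted p under 0.05 with all rats kept. Without S rat 2 the number was 2988 of 12446. It fell to 472 of 12446 and 477 of 12553 on leaving out R rats 1 and 2. On leaving out S rats 1 and 3 it fell to 529 of 12511 and 587 of 12446.

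**Figure D2:**
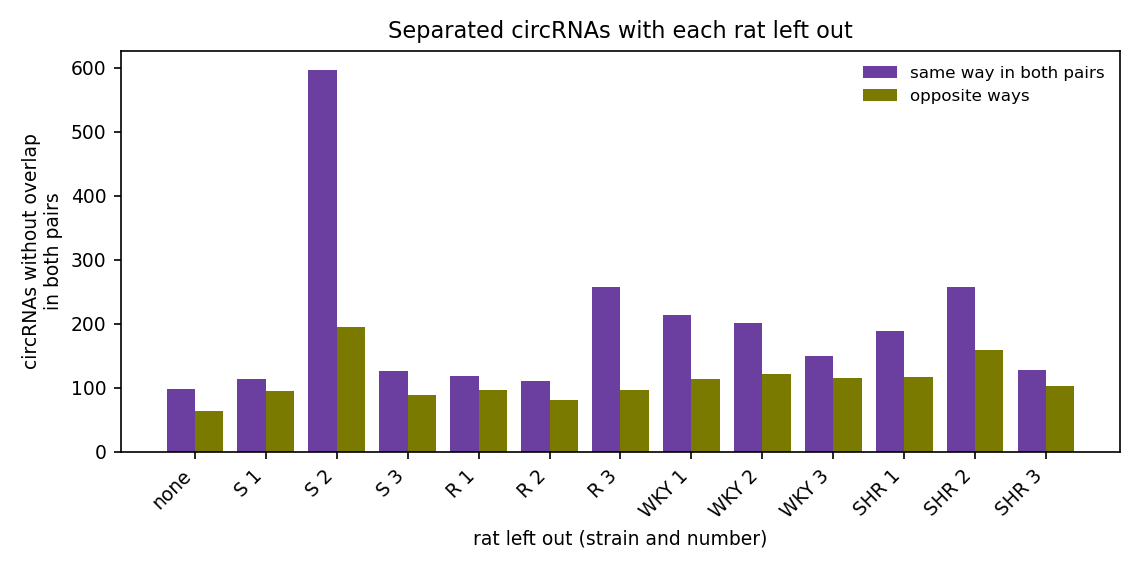
Bars count circRNAs free of overlap in both pairs (y axis) with no rat left out and with each rat left out in turn (x axis, strain and rat number), purple for the same way in both pairs and olive for opposite ways. The purple bar stands at 98 with no rat left out and at 597 without S rat 2.

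Without S rat 2 the pooled test called 6 of 12446 circRNAs, 2 higher and 4 lower, the smallest adjusted p being 0.0329 (limma, Benjamini-Hochberg). They were ASCRPR009543, ASCRPR000754, ASCRPR012550, ASCRPR010887, ASCRPR011867 and ASCRPR012329, and each was free of overlap in both pairs among the remaining rats. Leaving out any of the other 11 rats gave 0 calls, with the smallest adjusted p between 0.111 and 0.773. Leaving out both S rat 1 and SHR rat 2 also gave 0 calls.

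ASCRPR000446 was the circRNA higher in hypertensive kidneys with the smallest pooled p among those seen on all 12 arrays and free of overlap in both pairs. Its level was 0.35, 0.93 and 0.07 in the S rats and -0.25, -0.77 and -0.60 in the R rats. It was -0.69, -0.52 and -0.66 in the SHR rats and -1.48, -1.64 and -1.85 in the WKY rats. All S rats were above all R rats and all SHR rats above all WKY rats, but SHR lay where R did, so the 6 hypertensive rats overlapped the 6 normotensive ones. The pair differences were 0.99 and 1.03 (SE 0.26 each), and the pooled difference was 1.01 (SE 0.18, 95% interval 0.63 to 1.39, 2.01-fold). Its unadjusted p was 7.55e-05 and its adjusted p 0.313 (limma, Benjamini-Hochberg). Over 28 alternative settings the pooled difference ran from 0.687 to 1.097 and the adjusted p from 0.0153, with array weights, to 0.804, and array weights were the only setting that called it.

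ASCRPR011944 followed the same ladder of strains. The S rats had levels of -0.75, -1.66 and -1.27, and the R rats of -2.23, -2.33 and -2.03. The SHR rats had levels of -2.58, -2.90 and -2.28, and the WKY rats of -3.39, -3.31 and -3.83. Neither pair overlapped, while every SHR rat lay below the highest R rat. The pooled difference was 0.95 (SE 0.19, 95% interval 0.54 to 1.36), from 0.97 in S minus R and 0.93 in SHR minus WKY, with an adjusted p of 0.486 (limma, Benjamini-Hochberg). It was 0.47 with normexp, the lowest value over the 28 settings, and was called with array weights alone, at an adjusted p of 0.0174 (limma).

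ASCRPR012550 was lower in both hypertensive strains, and by the most among the circRNAs chosen for description in this way. The S rats had levels of -1.17, -0.32 and -1.54 against 0.55, 0.13 and -0.18 in the R rats. The SHR rats had levels of -0.03, -0.68 and -0.40 against 0.89, 1.18 and 1.205 in the WKY rats. S rat 2 and R rat 3 came close to each other, and the WKY rats stood well clear of the SHR rats. The pooled difference was -1.32 (SE 0.23, 95% interval -1.81 to -0.83, 2.49-fold lower), from -1.18 and -1.46, with an unadjusted p of 6.68e-05 and an adjusted p of 0.313 (limma, Benjamini-Hochberg). It was called with array weights, at an adjusted p of 0.0174, and without S rat 2.

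ASCRPR001886 was lower as well, with the larger difference in S minus R. Its levels were -2.57, -2.55 and -1.83 in the S rats, -1.27, -0.84 and -1.01 in the R rats, -0.79, -1.52 and -0.88 in the SHR rats, and -0.76, -0.57 and -0.62 in the WKY rats. SHR rats 1 and 3 lay close under WKY rat 1. The pair differences were -1.28 and -0.41 (SE 0.28 each), and the pooled difference was -0.85 (SE 0.22, adjusted p = 0.526, limma). Their difference from each other was -0.87 (SE 0.39) and was not called (adjusted p = 0.876, limma, Benjamini-Hochberg).

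Among the brightest 10% of circRNAs none separated upward in both pairs, and the first of those lower was ASCRPR005258. The S rats had levels of -0.03, 1.97 and 1.00, the R rats 2.46, 2.15 and 2.04, the SHR rats 2.38, 1.96 and 2.23, and the WKY rats 2.41, 2.56 and 2.47. Most of its pooled difference of -0.76 (SE 0.30, 95% interval -1.42 to -0.11, limma adjusted p = 0.526) came from S rats 1 and 3. It was -0.49 without S rat 1 and -0.36 with array weights. SHR minus WKY was -0.29 (SE 0.40).

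**Figure D3:**
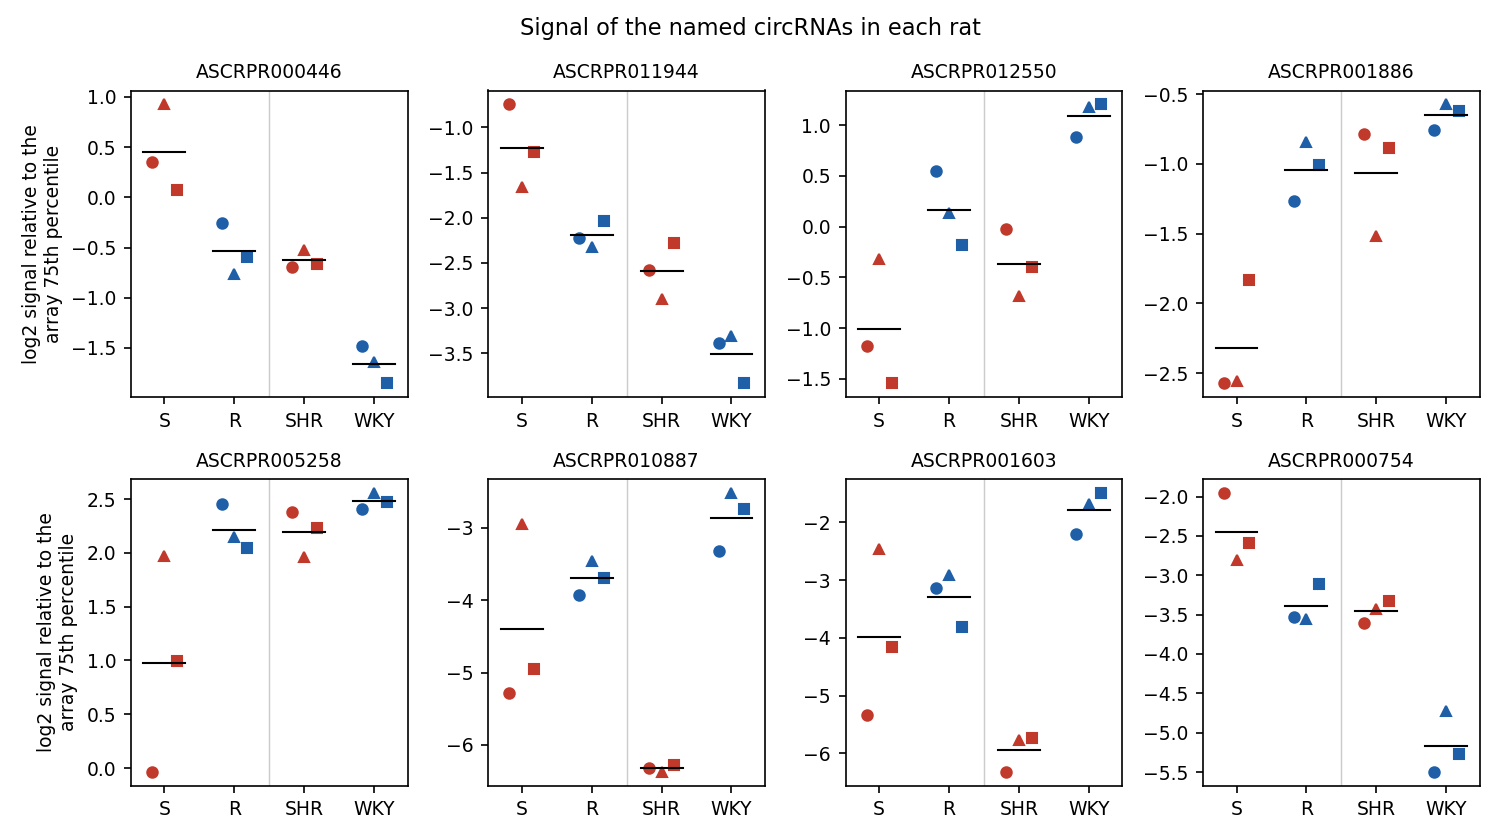
Log2 signal relative to the array's 75th percentile (y axis, a scale of its own in each panel) of 8 circRNAs in each rat, by strain (x axis). Red marks are hypertensive strains, blue marks normotensive ones, circles, triangles and squares are rats 1, 2 and 3, and bars are strain means. In ASCRPR000446 and ASCRPR011944 SHR lies at or below R, and in ASCRPR010887 and ASCRPR001603 the S rats overlap the R rats.

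A stricter rule asked that all 6 hypertensive rats lie on one side of all 6 normotensive rats. It held for 20 circRNAs (0.161%), 12 higher and 8 lower, with a median size of 0.67, and the other 78 of the 98 overlapped across pairs. How many would meet this rule by chance was not tested. Of the 20, 16 were well above background on all 12 arrays and the smallest adjusted p was 0.526 (limma, Benjamini-Hochberg). ASCRPR012288, picked after its values were seen as an example of those higher, had levels of -2.33, -2.85 and -2.82 in S and -3.05, -3.01 and -2.39 in SHR. Its levels were -3.65, -3.50 and -3.35 in R and -3.52, -3.49 and -3.35 in WKY. The lowest hypertensive rat, SHR rat 1, thus lay above the highest normotensive ones, and the pooled difference was 0.74 (SE 0.17, 95% interval 0.37 to 1.11).

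Differences of at least 2-fold in both pairs were rare. There were 38 circRNAs (0.306%) with such differences the same way, 20 higher and 18 lower, and 47 with opposite ways. S against R alone had 1481 and SHR against WKY 198. Only 5 of the 38 were also free of overlap in both pairs, and they are named here after their values were seen. ASCRPR004399 was higher by 1.26 (SE 0.26), and ASCRPR012550, ASCRPR011908, ASCRPR005029 and ASCRPR011075 had pooled differences of -1.32, -1.23, -1.54 and -1.64. In S, ASCRPR011908, ASCRPR005029 and ASCRPR011075 each stood well above background on 1 array of 3, as did ASCRPR011908 and ASCRPR011075 in SHR, so their sizes rest partly on signals near background. With normexp the pooled difference of ASCRPR011075 was -0.03, and in the deposited log2 value table it was -0.61. The offset of normexp by itself shrinks the log2 differences of dim probes, but its share in the loss was not tested.

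Fitting a mean per strain, which takes the difference between the pairs' effects out of the residual spread, called 10 circRNAs (0.0804%), 7 higher and 3 lower. Most of these were not shifts shared by the pairs. Just 5 of the 10 had the same sign in both pairs, 8 were free of overlap in 1 pair only, 1 ran opposite ways, and 4 had a difference above 2 in one pair and under 0.3 in the other. The 1 free of overlap the same way in both pairs was ASCRPR000754, also picked after its values were seen. Its levels were -1.95, -2.81 and -2.59 in S and -3.52, -3.55 and -3.11 in R. They were -3.61, -3.43 and -3.32 in SHR and -5.50, -4.72 and -5.27 in WKY, where no array had it well above background. Both pairs were free of overlap. SHR was at least 1.94-fold higher than WKY, a bound that sets the SHR mean against the higher, on each WKY array, of the probe's own signal and the lowest signal well above background there. The pooled difference of the measured signals was 1.33 (SE 0.22), with an adjusted p of 0.313 in the pooled fit and 0.0418 with a mean per strain (limma, Benjamini-Hochberg). It was called also with array weights and without S rat 2, and was the 1 circRNA common to these 3 lists of 10, 10 and 6. Its pooled difference was 0.46 with normexp (adjusted p = 0.529) and 0.49 in the deposited log2 value table (adjusted p = 0.508), and neither setting called it (limma, Benjamini-Hochberg). The offset of normexp by itself shrinks the log2 differences of dim probes, but its share in the smaller size was not tested.

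A test that asks for a difference in each pair, taking the larger of both p-values where the signs match, called 0 circRNAs (0%), and 28 (0.225%) had an unadjusted larger p under 0.05, 14 in each direction (limma). The smallest larger p was 0.00257. The test of the difference between the pairs, S minus R less SHR minus WKY, called 11 circRNAs (0.0884%), and 647 had an unadjusted p under 0.05 (limma, Benjamini-Hochberg). It called 294 without S rat 2, and between 3 and 17 with any other rat left out.

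Presence on the arrays was counted by status too. No circRNA was well above background on all 6 hypertensive arrays and on at most 1 normotensive array, while 5 showed the reverse. All 6 normotensive arrays and 2 hypertensive ones saw a further 17, and 3, 4 and 5 hypertensive ones saw 64, 363 and 1493. Of these 1493, 1420 were missed by S rat 1, the dimmest array. In the other direction the counts were 3, 7 and 54 for 3, 4 and 5 normotensive arrays.

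The 5 circRNAs seen on all normotensive arrays and on 1 hypertensive array were in most cases missing from SHR. ASCRPR010887 had levels of -6.32, -6.37 and -6.28 in the SHR rats, none well above background, against -3.32, -2.52 and -2.75 in the WKY rats. In the S rats it had levels of -5.28, -2.94 and -4.96 and in the R rats of -3.92, -3.45 and -3.69, so S rat 2 lay above all R rats. WKY was at least 2.81-fold higher than SHR, and the pooled difference of measured signals was -2.08 (SE 0.51, adjusted p = 0.526, limma). ASCRPR001603 was much the same, at least 5.88-fold higher in WKY than in SHR and overlapping in S and R. Its SHR rats had levels of -6.32, -5.76 and -5.74 and its WKY rats of -2.21, -1.68 and -1.49. Its S rats had levels of -5.33, -2.46 and -4.17 and its R rats of -3.14, -2.91 and -3.82. The pooled difference was -2.42 (SE 0.62, adjusted p = 0.526, limma). With normexp these pooled differences were -0.08 and -0.19, and in the deposited log2 value table they were -0.75 and -0.76. The offset of normexp by itself shrinks the log2 differences of dim probes, but its share in the loss was not tested. The other 3 were ASCRPR012782, at least 6.44-fold higher in WKY than in SHR, ASCRPR002324, at least 1.18-fold higher, and ASCRPR008788, which was missing from S and had no fold that could be bounded. They are named after their values were seen.

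The largest pooled differences did not come from shared shifts. The highest was that of ASCRPR013743, at 2.76 (SE 1.74, adjusted p = 0.528, limma), with levels of 11.67, 7.04 and 10.97 in S, 4.37, 8.93 and 9.93 in R, -1.40, -3.26 and -2.03 in WKY, and -2.80, 8.56 and -2.31 in SHR. SHR rat 2 was there far above its strain. The lowest measured one was that of ASCRPR012782, which was well above background on 1 S array and no SHR array, so that its size and rank rest on signals near background. Its strains S and R overlapped. Its size is given only as a bound, at least 6.44-fold for WKY over SHR with the scanner software's background subtraction. Both were singled out after their values were seen.

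Linear transcripts on the same arrays gave a small set of named genes. Of 62 mRNA probes 39 matched a gene, and 35 of them (34 genes) were bright enough to test. None passed the pooled test (0 of 35, 0%, smallest limma adjusted p = 0.429 over the 35), and 1 (2.86%) had an unadjusted p under 0.05. That 1 was Enpp1, an ectoenzyme that makes pyrophosphate outside the cell, at -0.73 (SE 0.33, limma unadjusted p = 0.0425, adjusted p = 0.429 by Benjamini-Hochberg). In all 24 probes had a lower and 11 a higher mean in hypertensive rats, with a median of -0.42 and a median SE of 0.44. Without SHR rat 2 the split was 20 lower and 15 higher, with a median of -0.06, and 10 probes turned sign. In both pairs 19 were lower and 4 higher, 12 had opposite signs, and 0 were free of overlap in both pairs. RNase R had digested linear RNA before labelling, so these probes read what was left of a transcript and not its level in the kidney. In whole kidney, fewer cells of a type and less RNA per cell cannot be told apart.

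The 3 lowest genes were Rplp1, which sits in the stalk of the ribosome, Cse1l, an export receptor for importin alpha, and Ndfip2, an adaptor that activates Nedd4-family ubiquitin ligases. Rplp1 had levels of -1.77, 0.21 and -0.76 in S, 0.20, 0.31 and 0.70 in R, 5.77, 0.20 and 5.01 in SHR, and 2.52, 6.27 and 5.85 in WKY. Its SHR and WKY rats were spread over many-fold and overlapped, with SHR rat 2 at the level of R. The pooled difference was -1.199 (SE 0.88, adjusted p = 0.528, limma), and it was -0.43 without SHR rat 2. Cse1l had a pooled difference of -0.999 (SE 0.64, adjusted p = 0.528, limma), from -1.01 in S minus R and -0.99 in SHR minus WKY. Its levels were 0.53, -3.66 and -0.10 in the SHR rats and -1.35, 0.26 and 0.83 in the WKY rats. The SHR minus WKY value thus rested on SHR rat 2, as the other SHR rats lay within the range of WKY. The pooled difference was -0.43 without SHR rat 2. Ndfip2 was lower by 0.81 in S and by 0.99 in SHR, or -0.90 pooled (SE 0.44, adjusted p = 0.429). Ndfip2 levels were -4.99, -4.69 and -4.65 in S, below all R rats at -3.90, -3.91 and -4.08. They were -1.86, -4.79 and -2.42 in SHR, and -2.73, -1.55 and -1.83 in WKY. It was -0.50 without SHR rat 2, and with normexp the sign turned, to 0.03.

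The 3 highest genes were Ptk2b, a calcium-activated tyrosine kinase, Med16, a subunit of the Mediator complex, and Map2, a microtubule-associated protein. Ptk2b had levels of 1.80, 0.42 and 0.97 in S, all above R at -1.41, -0.81 and 0.16. It had levels of -3.47, -1.24 and -3.48 in SHR, overlapping WKY at -1.93, -2.50 and -2.85. The pair differences were 1.75 and -0.30, and the pooled one was 0.72 (SE 0.53, adjusted p = 0.528, limma). Med16 was at 0.50 (SE 0.39, adjusted p = 0.556) and Map2 at 0.28 (SE 0.34, adjusted p = 0.698). Without S rat 1 these values were 0.45, 0.27 and 0.07 for Ptk2b, Med16 and Map2, and without SHR rat 2 they were 0.51, 0.52 and 0.44.

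**Figure D4:**
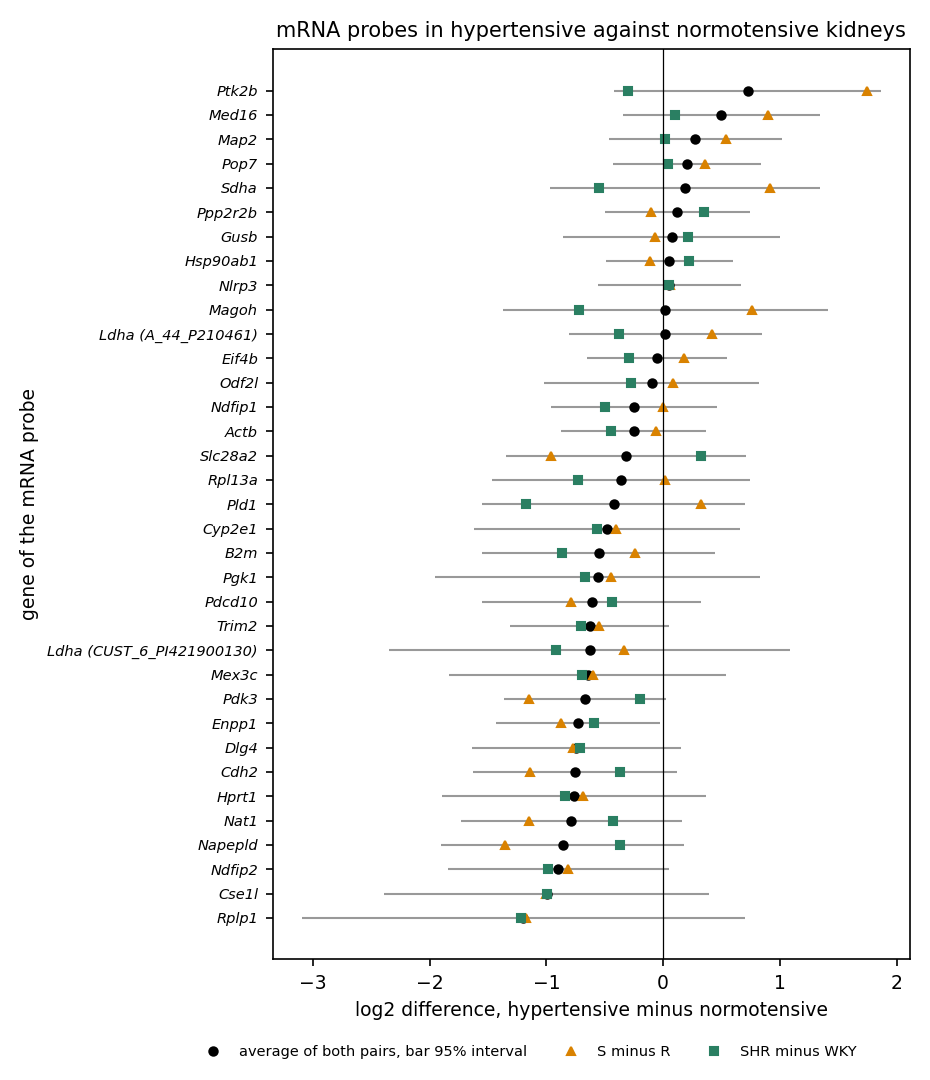
Log2 difference, hypertensive minus normotensive (x axis), of 35 mRNA probes by gene (y axis), as the average of both pairs with its 95% interval (black) and for S minus R (orange) and SHR minus WKY (green). Of the intervals that of Enpp1 alone leaves out 0, and 24 of 35 averages lie below 0, or 20 without SHR rat 2.

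No functional list held a gene that passed the test. The other ribosomal protein gene, Rpl13a, had a pooled difference of -0.36, which turned to 0.12 without SHR rat 2. Of 5 genes often used as references Hprt1 was at -0.76, B2m at -0.55 and Actb at -0.25, while Gusb, at 0.07, and Hsp90ab1, at 0.05, lay near 0. Without SHR rat 2 these were -0.30, -0.11, -0.10, 0.29 and -0.06. In glycolysis Pgk1, phosphoglycerate kinase, was at -0.56, and the 2 probes of lactate dehydrogenase A, Ldha, disagreed, at -0.63 and 0.02. Without SHR rat 2 Pgk1 was at 0.02 and the Ldha probes at 0.09 and 0.35. Sdha, the flavoprotein of succinate dehydrogenase, was at 0.18, or 0.65 without SHR rat 2 and 0.01 without S rat 1. The phospholipase D genes Pld1 and Napepld, the latter making N-acylethanolamines such as anandamide, were at -0.42 and -0.86. Pld1 was above background on 5 arrays only, its pairs had opposite signs (0.33 for S minus R, -1.18 for SHR minus WKY), and it was at 0.07 without SHR rat 2. Napepld was at -0.52 without S rat 1 and at -0.87 without SHR rat 2. Trim2, a ubiquitin ligase, was at -0.63, or -0.41 without SHR rat 2. Dlg4, a scaffold of synapses, was at -0.74, or -0.996 without SHR rat 2 and -0.75 without S rat 1. All these lists had 0 members called (limma), beside a median of -0.42 over all 35 probes.

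Cell types could be checked only in part. Of 7 proximal tubule markers only Cyp2e1, a cytochrome P450, was on the array. It was well above background on all 12 arrays, with a pooled difference of -0.48 that turned to 0.04 without SHR rat 2. Its SHR rats had levels of 1.80, -1.90 and 1.29. Of 4 leukocyte markers only Nlrp3, an inflammasome sensor, was there, on 10 arrays, at 0.05, or -0.06 without SHR rat 2. The fibroblast marker Fgf2 was too dim to test. Markers of the thick ascending limb, distal tubule, collecting duct, podocytes and endothelium were not on the array under a matched accession.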

How the data were processed

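Kidney RNA of 12 rats was hybridised to 1-colour circRNA arrays after RNase R digestion and random-primed Cy3 labelling, per the labels' protocols. The deposited scanner files hold spot intensity values that Agilent Feature Extraction 11.0.1.1 background-subtracted and did not scale between arrays, per the file headers. The submitters' processing notes also name limma. The deposited log2 value table, of unknown centring and filter, was an alternative only.

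Intensities were taken to log2 minus each array's 75th percentile over circRNA probes. Control spots and 40 spots with an outlier flag were left out, 0 spots were saturated, and a probe needed 2 unflagged values per strain. Each rat is 1 array, which limits the precision. The labels name 3 rats per strain. P-values from the fit of a mean per strain measure the spread between them. In the pooled fit, disagreement between the pairs adds to that spread. For the pooled contrast limma 3.58.1 (R 4.3.3, lmFit and eBayes) fitted status plus pair of strains over the 12 arrays, with Benjamini-Hochberg adjustment and a threshold of 0.05. A mean per strain gave the pair differences and their difference. Single array measures used an exact permutation test over 400 assignments within pairs. The fits were tested on simulated data.

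The mRNA probes (mean of their spots, above background in more than 50% of them) were fitted apart and named by accession through RefSeq genes of GRCr8. Of 62, 23 matched none and 4 that matched were too dim. Slides were inferred from the scan date in the headers, so a slide here is a group of arrays with the same scan date.

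Named by rule were, since none passed, the 2 circRNAs with the smallest pooled p in each direction free of overlap in both pairs and seen on all 12 arrays, the same in the brightest 10%, at most 2 each way seen on all arrays of a status and on at most 1 of the other, and the 3 highest and 3 lowest mRNA genes. The brightest 10% gave 0 higher and 1 lower. Members, rules and gene lists were chosen with earlier results of these data known.

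Alternatives were normexp (offset 50), quantile and median scaling, other filters on dim probes, the value table, replicate number, slide or strain as blocks, no pair, other variance settings, a rule of unadjusted p with 1.5-fold, the mRNA level as covariate, and leaving out each rat. Leaving out S rat 1 with SHR rat 2, and the values of all mRNA genes without either, were added after seeing the data.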

Additional observations from a re-analysis of the deposited data

Results flagged for a closer look

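Among the 6 hypertensive rats, S rat 1 stood apart in how many circRNA probes stood well above background, at 70.3% against 83.9% to 90.1% in the other 5. The gap to its nearest neighbour was 0.685 of the whole range, above Dixon's critical value for 6 samples. In all 38 groups of values were checked in this way, and chance flags about 1 in 20.

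The effect of status differed between the pairs of strains for 11 circRNAs, by limma's test of S minus R less SHR minus WKY with Benjamini-Hochberg adjustment. These 11 were 0.0884% of the circRNAs tested, and none was among the 98 free of overlap in both pairs in the same direction. The 98 were chosen for a shared direction, which made a match unlikely, so no conclusion is drawn from this.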

How the results depend on the processing

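The pooled count stayed at 0 except for 10 with a mean per strain, 10 with array weights (5 higher and 5 lower, 8 of them free of overlap in both pairs) and 632 with unadjusted p under 0.05 and 1.5-fold, and it ran from 0 to 6 with each rat left out. Of the 10 and 10, 2 were shared. The count of circRNAs that differed in each pair was 1 with array weights and 25 by the unadjusted rule. The 11 circRNAs with a difference between the pairs became 2 with normexp, 3 with a filter on all 12 arrays, 3 in the value table, 4 with a replicate block, 2 with slide as a block, 6 unmoderated, 647 by the unadjusted rule and 3836 with array weights, and from 3 to 294 with each rat left out, the highest without S rat 2. The 98 circRNAs free of overlap became 110 to 597 (74 to 412 higher, 35 to 185 lower) with each rat left out, and 298 (192 higher, 106 lower) without S rat 1 and SHR rat 2. The relative array weight was 0.154 for S rat 1 and 0.278 for SHR rat 2. The mRNA gene Ndfip2 reversed to 0.032 with normexp, and the cause was not tested here or above.

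Replicate numbers did not pair the rats, since deviations from strain means correlated at over 0.1 in 4 of 18 same-numbered pairs (median -0.18). With the replicate block the pooled count was 0, with a smallest limma adjusted p of 0.602. Slide as a block gave 0 (0.179) and the mRNA level as covariate 0 (0.0908).

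The number of rats and the signal over background set the limits. With 3 rats a strain the median 95% interval was 0.53 to either side of a pooled difference. Dim circRNAs such as ASCRPR010887, ASCRPR001603 and ASCRPR011075 lost nearly all of their pooled differences with normexp. In the deposited log2 value table their differences were smaller as well, at -0.75, -0.76 and -0.61. Normexp adds an offset before log2, which by itself shrinks the log2 differences of dim probes. How much of the loss with normexp came from the offset was not tested.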
